A study of Arabidopsis thaliana with 42 samples.

Results

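The genes described here are nuclear genes of Arabidopsis thaliana for which the deposited expression files give a value in some libraries and the code -1 in place of a value in others. Members were all genes with a nuclear locus name (AT1G to AT5G and 5 digits) that carried the code in at least 1 and fewer than 38 of the 38 libraries labelled as biological replicates. They numbered 1092 of 33323 nuclear genes (3.28%). A further 2651 nuclear genes (7.96%) carried the code in all 38 libraries, and 29580 carried it in none. The members were thus chosen by the code itself, so which accessions lack values is given as a description with no test.

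The study measured polyA RNA of seedlings of the 19 founder accessions of the MAGIC population, natural inbred lines that were intercrossed for genetic mapping. The accessions were Bur-0, Can-0, Ct-1, Edi-0, Hi-0, Kn-0, Ler-0, Mt-0, No-0, Oy-0, Po-0, Rsch-4, Sf-2, Tsu-0, Wil-2, Ws-0, Wu-0, Zu-0 and Col-0, each with 2 libraries labelled as biological replicates. Col-0, from which the reference genome comes, had 4 further libraries labelled as technical replicates. All seedlings were 11 days old, untreated, and had been grown on soil at about 20 C in days of 16 hours of light and 8 hours of dark after 5 days of cold at 4 C. The labels do not give how many plants were pooled for a library or whether replicates came from separate sowings, so p-values below measure the spread between these libraries.

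Values are RPKM, read numbers scaled by exon length in kilobases and by the mapped reads of the library. Depth estimated from the smallest steps of the values was 1.16 to 4.77 (median 3.435) Mreads per library (1 Mread is 1e+06 reads), so that 3 reads on 1000 exon bases corresponded to 0.629 to 2.59 RPKM. Between 16921 and 17660 nuclear genes reached 1 RPKM in a library. Leaf genes were high in all 38 libraries (RBCS1A, the small subunit of Rubisco, at 15221 to 24195 RPKM), and the root gene PYK10 stood at 81.1 to 448 RPKM. Of the flower genes, the petal and stamen regulators AP3 and PI reached at most 0.952 and 2.27 RPKM. SEP3, also a flower gene, had a median of 2.70 RPKM and reached 28.6 RPKM. The seed genes CRA1, OLEO1 and EM6 had medians of 0 and reached 5.73, 2.53 and 5.64 RPKM.

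Natural accessions of Arabidopsis differ by deleted, duplicated and strongly diverged stretches of DNA, and a locus of the reference can be missing or unrecognisable in another line. Tandem copies, immune receptor clusters and the transposon-rich DNA around the centromeres are known for such differences. Immune receptors of the NLR class carry a nucleotide-binding domain and leucine-rich repeats and detect pathogen effectors inside the cell. The sources used here do not say what the code -1 stands for, and a code was read only as no value.

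The coding starts below are shown because the results turn on these genes or because they show how alike the copies are. They are the reference (Col-0) sequences from RefSeq TAIR10.1, 5′ to 3′ on the coding strand with introns left out, and no sequence of another accession was read. LpxC1 (plus strand, chr1:8767581-8767801) and LpxC2 (plus strand, chr1:8776028-8777015) encode enzymes of lipid A precursor synthesis and lie in the longest stretches without values in Oy-0; capitals mark the start codon.
LpxC1: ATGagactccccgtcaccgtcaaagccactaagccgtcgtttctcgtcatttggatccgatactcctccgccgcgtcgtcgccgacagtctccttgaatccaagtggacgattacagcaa
LpxC2: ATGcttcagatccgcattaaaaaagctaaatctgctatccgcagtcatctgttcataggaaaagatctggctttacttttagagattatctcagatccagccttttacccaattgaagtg
The first of these is also the start of LpxC3, LpxC4 and LpxC5, since the annotated coding sequences of LpxC1, LpxC3, LpxC4 and LpxC5 were identical over all 981 bases.

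AT4G20530 (plus strand, chr4:11048585-11048704) and AT4G20580 (plus strand, chr4:11064922-11064999) are tandem copies of a cysteine-rich repeat secretory protein gene that lack values in Mt-0. Capitals mark the part that both annotated starts share, and AT4G20580 was identical to AT4G20530 over all 771 of its coding bases.
AT4G20530: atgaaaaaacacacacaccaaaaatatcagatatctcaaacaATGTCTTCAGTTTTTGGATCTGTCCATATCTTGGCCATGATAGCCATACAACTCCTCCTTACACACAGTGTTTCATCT
AT4G20580: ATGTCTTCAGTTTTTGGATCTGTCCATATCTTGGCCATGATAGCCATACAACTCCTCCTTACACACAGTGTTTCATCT

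PIP1;4 (minus strand, chr4:187412-187531), an aquaporin of the plasma membrane, had the highest level of all members and lacked values in Can-0. It is set beside PIP1;5 (plus strand, chr4:12220792-12220911), a relative with values in every library, and capitals mark the 28 of 120 bases that differ between them. Over 864 coding bases the pair were 80.3% identical.
PIP1;4: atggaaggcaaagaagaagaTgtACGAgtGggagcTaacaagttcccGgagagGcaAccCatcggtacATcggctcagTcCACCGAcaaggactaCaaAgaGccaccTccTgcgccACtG
PIP1;5: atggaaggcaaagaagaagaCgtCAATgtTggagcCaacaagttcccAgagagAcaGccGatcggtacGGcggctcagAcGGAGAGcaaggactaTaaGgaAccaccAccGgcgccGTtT

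AT1G66100 (minus strand, chr1:24606354-24606473) encodes a thionin, a small antimicrobial peptide, and lacked values in Mt-0. Capitals mark the start codon.
AT1G66100: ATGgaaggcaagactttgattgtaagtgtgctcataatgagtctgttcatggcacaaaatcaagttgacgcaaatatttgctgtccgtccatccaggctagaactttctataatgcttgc

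RLM3 (AT4G16990, plus strand, chr4:9560155-9560274) encodes a TIR-domain protein of fungal disease resistance and lacked values in 6 accessions. APS3 (AT4G14680, minus strand, chr4:8415192-8415311) encodes an ATP sulfurylase of sulfate assimilation and lacked values in Can-0. Capitals mark the start codon of each.
RLM3: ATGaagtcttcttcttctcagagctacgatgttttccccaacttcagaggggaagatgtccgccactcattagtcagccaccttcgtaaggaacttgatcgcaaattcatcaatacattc
APS3: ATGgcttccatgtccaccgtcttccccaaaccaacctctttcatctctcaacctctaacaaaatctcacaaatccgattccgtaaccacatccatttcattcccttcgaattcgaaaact

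The code mostly covered both libraries of an accession. No member carried it in either biological library of Col-0. In the other 18 accessions, 3034 pairs of a gene and an accession had the code in both libraries, 195 had it in replicate 2 only and 0 had it in replicate 1 only. The codes of replicate 1 were therefore contained in those of replicate 2 in every accession.

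The 195 pairs with the code in replicate 2 only came from 100 genes, of which 84 are annotated as pseudogenes, and in all 195 pairs replicate 1 was listed at 0. They numbered 4 in Hi-0 to 17 in Zu-0. For 78 of these 100 genes no accession had the code in both libraries, and 47 of them had it in a single library. Replicate 2 was the deeper library in 12 of the 18 accessions. The noncoding RNA AT2G15292 was the most expressed of this kind, at a mean of 7.03 RPKM. It was at 36.0 and 21.8 RPKM in Tsu-0 and at 18.2 and 16.8 RPKM in Col-0, while in 7 accessions, among them Bur-0 and Hi-0, replicate 1 was at 0 and replicate 2 had the code.

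The number of members that lacked a value differed between accessions. Can-0 lacked 229 members in both libraries, the most, and Wil-2 lacked 204. Po-0 lacked 94 and Hi-0 lacked 105, the fewest, and the median over 18 accessions was 173. Can-0 also had the most members that no other accession lacked, 68 genes or 29.7% of its 229. Mt-0 followed with 55 (29.1%) and Oy-0 with 53 (30.8%), against 4 in Po-0 (4.26%) and a median of 21.

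**Figure D1:**
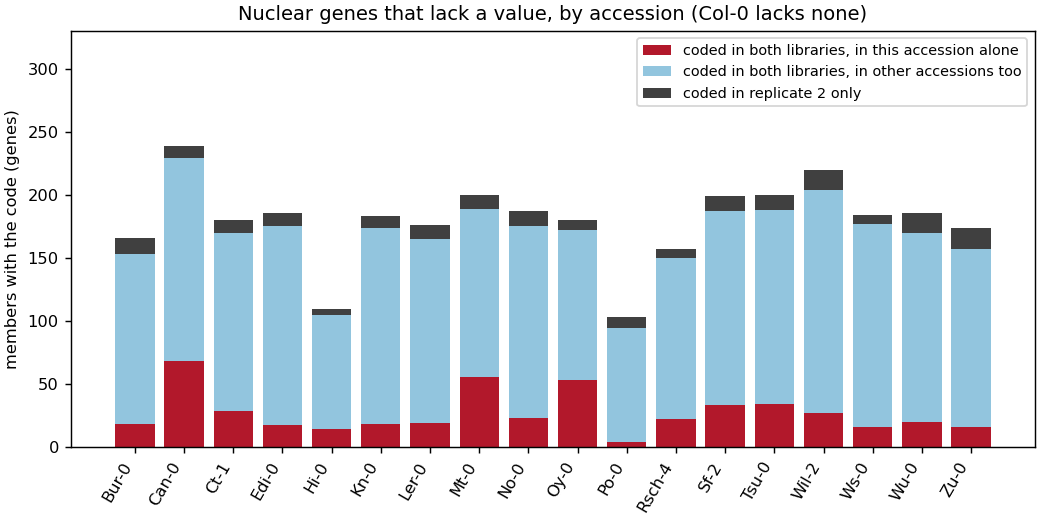
Members with the code in each of the 18 accessions that had any, as stacked counts of genes: coded in both libraries of this accession alone (red), coded in both libraries here and elsewhere (blue) and coded in replicate 2 only (dark grey). Can-0 stands highest with 229 coded in both libraries, Po-0 lowest with 94, and Can-0, Mt-0 and Oy-0 have the tallest red parts with 68, 55 and 53 genes.

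Most members lacked values in few accessions. In 491 members (45.0%) exactly 1 accession had the code in both libraries, in 147 it was 2 accessions and in 88 it was 3. Only 51 members (4.67%) had it in 10 to 18 accessions. AT1G60720, annotated as a reverse transcriptase gene, had it in all 18 accessions other than Col-0, with both Col-0 libraries listed at 0. At the ends of the rule, 47 members carried the code in a single library, while no nuclear gene carried it in 37.

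**Figure D2:**
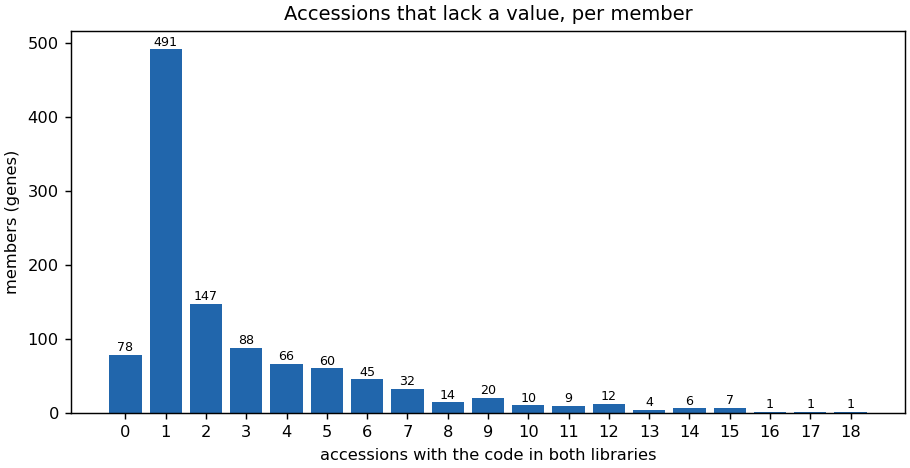
Number of members (vertical axis, genes) by the number of accessions in which both libraries had the code (horizontal axis). The 491 members at 1 accession form the tallest bar, and the 78 at 0 are the genes coded in replicate 2 only.

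Accessions shared part of their lists. Over the 153 pairs of accessions, the members lacked by both made up 9.06% to 27.6% of those lacked by either, with a median of 17.3%. Kn-0 and Ws-0 shared most, 76 genes, which were 43.7% of the Kn-0 list and 42.9% of the Ws-0 list. Oy-0 and Po-0 shared 57 genes, 33.1% of the Oy-0 list and 60.6% of the shorter Po-0 list. By this share of the union Mt-0 and Oy-0 were lowest, with 30 genes in both, 15.9% and 17.4% of their lists. By number of genes Hi-0 and Po-0 shared least, 18, which were 17.1% of the Hi-0 list and 19.1% of the Po-0 list.

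By annotation, 517 members (47.3%) are protein-coding, against 26040 (88.0%) of the nuclear genes with no code. Pseudogenes made up 494 members (45.2%), against 1969 (6.66%) of the genes with no code and 2374 (89.6%) of the genes coded in all libraries. The members thus stood between the genes that always had a value and those that never had one in their share of pseudogenes. A further 28 members are long noncoding or other noncoding RNAs, 9 are tRNA genes, 6 are miRNA precursors and 1 is the snoRNA U49.1. For 37 members the annotation used here gave no position.

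Members were more often made of sequence that recurs in the genome. The share of a member's 31-base exon words that also occur elsewhere in the nuclear genome had a median of 10.8%, against 0 in genes with no code. Among protein-coding genes the medians were 9.27% in members and 0 in genes with no code, so the difference was also present among protein-coding genes. At least 50% of words recurred in 281 members (26.6%), against 3.77% of the genes with no code. Of the protein-coding members, 45 (8.70%) had a coding sequence identical to that of another gene, against 83 of 26040 (0.319%) with no code. Members were also shorter, with a median of 1182 exon bases against 1543, and more often had a single exon (61.5% against 26.8%).

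Where reads match several copies equally, values of single copies are uncertain, since no source used here states how such reads were treated. The largest set of identical coding sequences was 7 secretory protein genes from AT4G20580 to AT4G20640, all 7 of them members.

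The members were spread over all 5 chromosomes, with 239 of 8433 genes on chromosome 1 (2.83%), 169 of 5513 on chromosome 2 (3.07%), 266 of 6730 on chromosome 3 (3.95%), 214 of 5140 on chromosome 4 (4.16%) and 204 of 7507 on chromosome 5 (2.72%). In windows of 2 Mb their share was uneven. The 10 windows in which at least 20% of genes were coded in all libraries held 351 members, 8.13% of their 4319 genes. The other 52 windows held 704 members, 2.47% of 28516 genes. The highest share was 11.9%, with 48 members among 403 genes, at 12 to 14 Mb of chromosome 3, where 47.9% of genes were coded in all libraries.

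Members often lay side by side. Of the 1055 members with a position, 421 (39.9%, exact 95% binomial interval 36.9% to 42.9%) were next to a member that lacked a value in at least 1 of the same accessions, and they formed 164 runs. Of these runs, 111 held 2 genes, 35 held 3 and 9 held 4. Runs were formed for each accession, so that runs of different accessions can overlap and a gene can stand in more than 1 of them. The interval covers counting error only, and neighbouring genes are not independent. When 1 gene that is no member was allowed between neighbours the share was 44.4%, and when the same set of libraries had to carry the code it was 31.8%.

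The longest run held 23 genes, AT4G20510 to AT4G20725, over 72.7 kb of chromosome 4 (11041657 to 11114366), and lacked values in Mt-0 alone. Most of it consists of tandem copies of cysteine-rich repeat secretory protein genes, whose products carry the DUF26 domain. Of the 28 nuclear genes annotated with this product, 17 were members (60.7%), and all 17 were at 0 in every library with a value. None of the 11 with no code reached a mean of 1 RPKM either, so low level was not particular to the members. Across the run 20 of 23 genes were at 0 throughout, and the highest, AT4G20720, averaged 0.261 RPKM. The nearest expressed gene on the far side, EMB3131, was at 3.74 and 5.74 RPKM in Mt-0 and at 2.07 to 8.00 RPKM in the other accessions (median 3.87). On the near side AT4G20480 was at 0.589 and 0.526 RPKM in Mt-0 and at 0 to 53.3 RPKM in the others (median 2.43). The Mt-0 values thus lay inside the range of the others for both genes, but below the median for AT4G20480.

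The next 2 runs by length adjoin on chromosome 1 and lacked values in Oy-0 alone. They held 15 genes from AT1G24996 to AT1G25180 (8799520 to 8831390, 31.9 kb) and 11 genes from AT1G24792 to AT1G24938 (8765614 to 8792080, 26.5 kb). Between them lies AT1G24967, a pseudogene coded in all 38 libraries. All 26 members of this stretch had the code in Oy-0 and none had it in any other accession. In the reference the stretch repeats a set of genes that includes LpxC, anthranilate synthase beta and F-box genes, and the median share of recurring words was 100% in both runs.

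LpxC2 (AT1G24880) had the highest listed mean of them, and its listed values differed widely between accessions. It ranged from 0 to 41.1 RPKM over 36 libraries with a median of 1.44, and 11 libraries were at 0. The highest libraries were Wil-2 at 41.1 and 30.7 RPKM, Mt-0 at 24.2 and 27.2 RPKM and Col-0 at 21.9 and 28.9 RPKM. Bur-0, Hi-0, Po-0 and Rsch-4 were at 0 in both libraries. The range of accession means was 5.2 on the log2(RPKM + 1) scale, with an adjusted p of 1.82e-17 in limma's F test over the accessions with values (Benjamini-Hochberg adjustment over all genes tested, as for every adjusted p below). In RNA of whole seedlings, fewer cells of a type and less RNA per cell cannot be told apart. LpxC2 overlaps AT1G24822 in the annotation, so reads of these genes cannot be told apart where they overlap. Of its exon words 100% recur elsewhere in the genome, so its values as a single copy are uncertain. All 4 technical Col-0 libraries listed it at 0.

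AT1G24996, in the neighbouring run, was above 0 in many of the accessions that also had LpxC2: Wil-2 had 11.3 and 4.74 RPKM and Col-0 had 12.1 and 9.43 RPKM. Bur-0, Can-0, Edi-0, Hi-0, Po-0, Rsch-4, Sf-2, Ws-0 and Wu-0 were at 0 in both libraries. Its median was 0.366 RPKM and its adjusted p was 3.06e-07, with the same limit, since 100% of its exon words recur. LpxC1 (AT1G24793) reached 4.71 RPKM with a median of 0.697, LpxC3 reached 1.17 RPKM with 34 of 36 libraries at 0, and LpxC4 was at 0 in all 36.

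The copies outside the runs had values in Oy-0. LpxC5 (AT1G25210), identical in coding sequence to LpxC1, had no code anywhere and stood at 2.45 and 4.28 RPKM in Oy-0, against 0 in 35 of the 36 other libraries and 0.395 RPKM in the remaining one. ASB1 (AT1G25220), a beta subunit of anthranilate synthase in tryptophan synthesis, was at 13.3 and 17.7 RPKM in Oy-0, against 1.79 to 10 RPKM (median 5.88) in the others. The listed values of the Oy-0 libraries were thus the highest of 38 for both genes. LpxC1, LpxC3 and LpxC4, identical to LpxC5 in coding sequence, had the code in Oy-0. How reads that match several copies were treated is not given, so the LpxC5 values are uncertain. Whether LpxC5 itself is more expressed in Oy-0 was not tested. The ASB1 relative AT1G24807, a member, had the code in Oy-0 and 1.20 to 7.42 RPKM (median 3.45) elsewhere. The further relatives AT1G24909, AT1G25083 and AT1G25155 reached at most 0.901 RPKM. These comparison genes were picked after their values were seen, and no test was run on them.

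**Figure D3:**
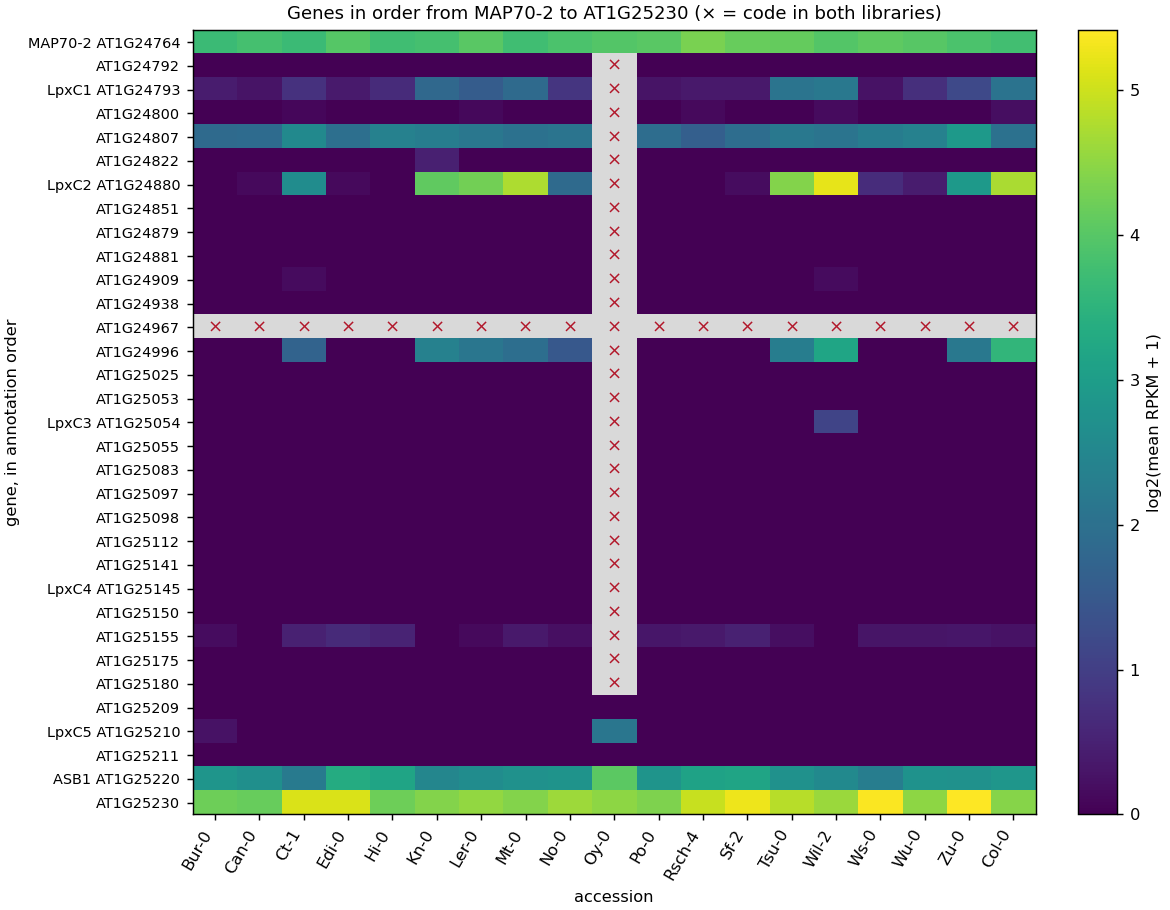
Mean of 2 libraries as log2(mean RPKM + 1) (colour) for 33 genes in annotation order (rows, MAP70-2 at the top) in 19 accessions (columns); grey cells with a cross mark the code in both libraries. The crosses fill the Oy-0 column from AT1G24792 to AT1G25180, AT1G24967 is crossed in every accession, and LpxC5 and ASB1 below the crosses are brightest in Oy-0.

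The next runs by length held 6 to 8 genes, and the share of recurring words differed between them. A run of 8 genes from AT3G46380 to AT3G46410 (chromosome 3, 17059218 to 17080684) lacked values in Po-0, and 6 of them lacked values in Wil-2 too; it includes protein kinase genes such as AT3G46400, its highest mean was 0.466 RPKM, and the median share of recurring words was 12.4%. A run of 7 genes, AT1G58643 to AT1G58848 (chromosome 1, 21766847 to 21797050), lacked values in Oy-0 and holds NLR genes and AT1G58684, a ribosomal protein S5 family gene at 0 to 15.7 RPKM; its median share of recurring words was 100%. A run of 7 genes from AT2G03931 to AT2G03940 (chromosome 2, 1214428 to 1232499) lacked values in Tsu-0, and its median share of recurring words was 18.6%. It includes AT2G03934, a defensin-like locus annotated as a transcribed pseudogene, with 35 of 36 libraries at 0. A run of 6 genes from AT3G22000 to AT3G22040 lacked values in 5 accessions (Bur-0, Can-0, Kn-0, Tsu-0 and Ws-0). Both end genes are annotated as cysteine-rich repeat secretory proteins. All 6 genes were at 0 wherever a value stood, and the median share of recurring words was 0.205%.

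Where a value stood, it was mostly 0. Of the 41496 entries of the members over 38 libraries, 15.1% were the code, 74.1% were listed at 0 and 10.8% were above 0. The mean over libraries with a value was 0 in 705 members (64.6%), against 17.1% of the genes with no code. It reached 1 RPKM in 112 members (10.3%), against 59.7%, and 10 RPKM in 24 members (2.2%), against 31.1%. Among protein-coding genes 82 of 517 members (15.9%) reached a mean of 1 RPKM, against 66.5% of those with no code. Per library, 6.05% to 10.5% of the members with a value reached 1 RPKM (SD 0.947 over 38 libraries).

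**Figure D4:**
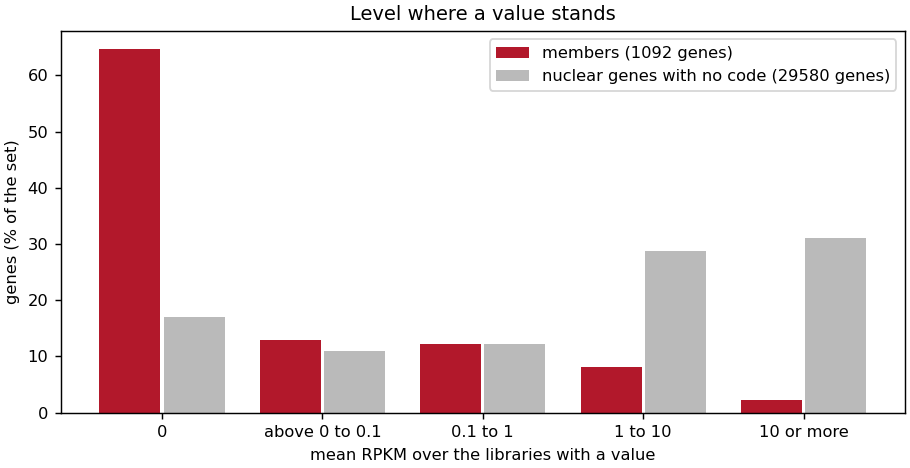
Share of genes (vertical axis, percent of the set) by mean RPKM over the libraries with a value (horizontal axis) for the 1092 members (red) and the 29580 nuclear genes with no code (grey). Members stand at 64.6% in the class of 0, and the other genes stand at 31.1% in the class of 10 RPKM or more, against 2.2% of members.

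Level showed no steady order with the number of accessions that lacked a value. A mean of 1 RPKM was reached by 65 of 491 members coded in 1 accession (13.2%), 20 of 301 coded in 2 to 4 (6.64%), 15 of 171 coded in 5 to 9 (8.77%) and 6 of 51 coded in 10 to 18 (11.8%). Of the 78 genes coded in replicate 2 only, 6 reached it (7.69%).

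Members expressed in Col-0 were often at 0 in accessions that did have a value. In 95 members both Col-0 libraries reached 1 RPKM. Over their 1438 pairs with another accession that had values, both libraries were at 0 in 378 (26.3%), against 0.527% of pairs for the 16741 such genes with no code. At least 1 accession was at 0 in 67 of the 95 members (70.5%), against 2.64% of the other genes. Among protein-coding genes 20.5% of pairs were at 0 in members, against 0.408% in genes with no code. Both sets were picked by their level in Col-0 and were not matched for level. The counts are a description, since members also share accessions and runs.

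PIP1;4 (AT4G00430, chromosome 4, 185285 to 187680, minus strand) was the most abundant member, with 164 to 261 RPKM (median 211) over 36 libraries. Its accession means spanned only 0.55 on the log2 scale (adjusted p = 0.00151, limma F test), the lowest being No-0 at 191 and 164 RPKM and the highest Kn-0 at 261 and 261 RPKM. It had the code in both libraries of Can-0. PIP1;5 (AT4G23400) was at 144 and 119 RPKM in Can-0, inside the 70.1 to 208 RPKM of the other libraries.

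APS3 (AT4G14680) likewise had the code in Can-0 alone and was above 0 in all 36 other libraries, at 5.40 to 43.6 RPKM (median 25.3, adjusted p = 1.08e-07). Ct-1 was lowest at 9.10 and 5.40 RPKM and Bur-0 highest at 41.5 and 43.6 RPKM. Its relative APS1 (AT3G22890), another ATP sulfurylase, was at 313 and 318 RPKM in Can-0 and at 213 to 381 RPKM elsewhere. APS3 overlaps AT4G14675 in the annotation.

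RLM3 (AT4G16990, chromosome 4, 9558571 to 9565569, plus strand) had the code in Kn-0, Rsch-4, Tsu-0, Wil-2, Ws-0 and Wu-0. Over the 26 libraries of the other 13 accessions it ranged from 7.01 to 159.9 RPKM with a median of 80.6. Can-0 was apart at 7.01 and 9.38 RPKM, and the next lowest was Mt-0 at 27.0 and 29.2 RPKM. Oy-0 was highest at 157 and 131 RPKM, followed closely by Sf-2 at 142 and 133 RPKM and No-0 at 159.9 and 99.3 RPKM, which overlapped it. The adjusted p was 9.66e-10.

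The thionin gene AT1G66100 was either abundant or at 0. Wu-0 had 298 and 331 RPKM, Wil-2 had 81.0 and 52.6 RPKM, Ct-1 had 58.5 and 69.0 RPKM, and Col-0 had 427 and 589 RPKM. The other 14 accessions with a value were at 0 in both libraries, and Mt-0 had the code. No accession lay between 0 and the 4 expressing ones, and these 4 alone carried the gene past the filter. Its adjusted p in the F test over accessions was 1.59e-22, which does not test that gap. The gene was also among those named for the widest ranges past this same test. AT1G66100 overlaps AT1G08813 in the annotation, and the use of strand in counting is not given in the sources used here.

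AT3G47250, a membrane protein gene with the DUF247 domain, had the code in Hi-0 alone. It was at 0 in both libraries of 6 accessions (Ct-1, Edi-0, Kn-0, Mt-0, No-0 and Zu-0). The other 12 were at 17.1 to 58.6 RPKM, with nothing between. Its adjusted p in the F test was 4.44e-22, which does not test that gap. AT3G47250, AT3G18535 and AT5G05060 were also among the genes named for the widest ranges past this same test. AT3G18535, annotated as a tubulin-tyrosine ligase, had the code in Sf-2 and was at 152 and 157 RPKM in Zu-0, against at most 46.4 RPKM in any other library, while 13 libraries were at 0. AT5G05060, a cystatin-like gene, had the code in Can-0 and was at 261 and 230.1 RPKM in No-0 and 128 and 94.3 RPKM in Oy-0. Hi-0, Tsu-0 and Wu-0 were at 0 in both libraries for AT5G05060, and its adjusted p was 1.59e-15.

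**Figure D5:**
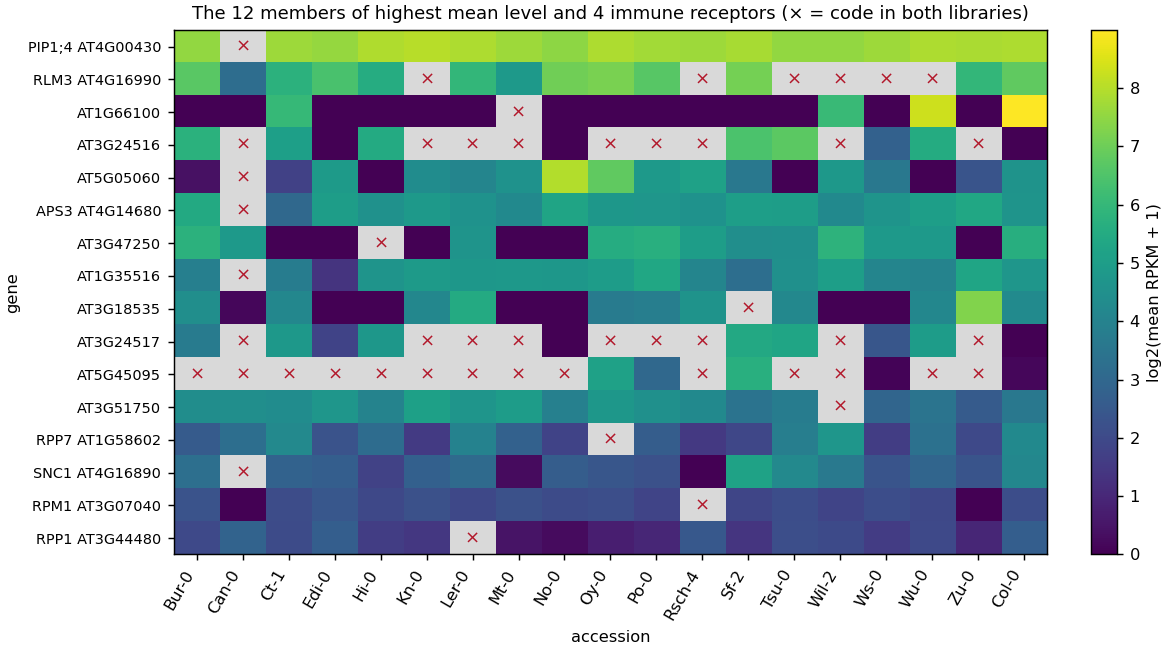
Mean of 2 libraries as log2(mean RPKM + 1) (colour) for the 12 members of highest mean level and 4 NLR genes (rows) in 19 accessions (columns); grey cells with a cross mark the code in both libraries. PIP1;4 is even across accessions apart from its cross in Can-0, AT1G66100 is bright in 4 accessions and at 0 in 14, and Col-0 carries no cross.

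The neighbours AT3G24516 and AT3G24517, small genes of unknown function on chromosome 3, had the code in the same 9 accessions and were listed at 0 in both Col-0 libraries. AT3G24516 stood at 69.8 and 139 RPKM in Tsu-0 and 78.3 and 92.6 RPKM in Sf-2. AT3G24517 stood at 52.5 and 24.0 RPKM in Tsu-0 and 38.3 and 45.7 RPKM in Sf-2. Both overlap AT3G24514 in the annotation, and AT3G24517 also overlaps AT3G24518. Other named genes overlap an annotated gene too, among them AT4G08874 (with AT4G08875), AT3G18535 (with AT3G18530) and AT1G35516 (with AT1G35515). AT5G45095 had the code in 14 accessions. It was at 46.1 and 53.6 RPKM in Sf-2 and 33.5 and 35.1 RPKM in Oy-0, against 0.250 and 0 RPKM in Col-0. AT4G08874 had the code in 15 accessions, was at 60.6 and 52.2 RPKM in Bur-0, and was at 0.484 and 1.09 RPKM in Col-0. A gene coded in most accessions was thus not always one that only Col-0 expressed.

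The members below were among the most abundant of those with the code in a single accession. ETP1 (AT3G18980), an F-box protein that acts on the ethylene signalling protein EIN2, had the code in Ct-1 and 2.12 to 34.0 RPKM elsewhere (median 18.4, adjusted p = 4.19e-13). The TIR-domain gene AT1G72910 had the code in No-0 and ranged from 0 to 34.7 RPKM, with Sf-2 at 0 and 0.309 RPKM and Ct-1 at 0.158 and 0.430 RPKM (adjusted p = 2.80e-12). AT1G35516, a myb-like gene, had the code in Can-0 and 0.397 to 42.8 RPKM elsewhere (adjusted p = 2.35e-08). AT3G51750 had the code in Wil-2 and 4.17 to 35.1 RPKM elsewhere (adjusted p = 2.42e-08), and the ankyrin repeat gene AT5G54710 had it in Tsu-0 and 0 to 39.3 RPKM elsewhere (adjusted p = 1.54e-10).

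Levels among the accessions with values were tested with limma's F test on log2(RPKM + 1), adjusted by Benjamini-Hochberg over all 20669 genes tested. Of all genes tested 55.3% were called at an adjusted p under 0.05. Only 215 members (19.7%) passed the filter of 1 RPKM in at least 2 libraries, against 68.0% of the genes with no code, and 163 of those 215 were called (75.8%, and 171 at an unadjusted p under 0.05). The median range of accession means was 2.30 on the log2 scale in the 215 members and 0.99 in the genes with no code that passed. A gene with level in few accessions passes the filter through those accessions, so these counts describe the 215 members and not the 877 that were not tested.

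Accessions were sequenced in groups of 3 or 4 that shared a pair of lanes, so accession and lane cannot be told apart between groups. Ws-0, Wu-0 and Zu-0 were on another sequencing run than the other biological libraries, and both Zu-0 libraries are labelled with the same lane. Within lane pairs 86 of 130 members tested were called (66.2%) among Bur-0, Can-0, Ct-1 and Col-0, against 18.2% of all genes tested. Among Ler-0, Kn-0, Hi-0 and Edi-0 it was 79 of 119 members (66.4%), against 26.4% of all genes. Among Po-0, Oy-0, No-0 and Mt-0 it was 45 of 110 (40.9%), against 6.64%. Wil-2, Tsu-0, Sf-2 and Rsch-4 gave 62 of 121 (51.2%), against 10.5%. The group of Zu-0, Wu-0 and Ws-0 gave 38 of 98 (38.8%), against 8.65%. Differences between accessions were thus also called inside single lane pairs.

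NLR immune receptors were a family with several expressed members. Of 157 nuclear NLR genes 22 were members (14.0%), 9 of these 22 reached a mean of 1 RPKM, against 78 of 135 (57.8%) with no code, and 13 of the 14 that passed the filter were called, where 55.3% of all genes tested and 75.8% of the members tested were. RLM3 was counted in this list, although its annotation as TIR-NBS class names no leucine-rich repeats. Besides RLM3, the most abundant members of the list were RPP7 (AT1G58602) and SNC1 (AT4G16890). RPP7, a downy mildew resistance gene, had the code in Oy-0 and 1.28 to 28.8 RPKM elsewhere (median 5.90, adjusted p = 9.05e-12).

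SNC1, a TIR-type receptor, had the code in Can-0 and ranged from 0 to 37.1 RPKM (median 5.32, adjusted p = 4.45e-13). Among the biological libraries Sf-2 was highest at 34.3 and 37.1 RPKM, Tsu-0 had 13.7 and 21.4 RPKM, Rsch-4 was at 0 in both libraries, and Col-0 had 17.9 and 15.7 RPKM. RPM1 (AT3G07040), a receptor for Pseudomonas effectors, had the code in Rsch-4, was at 0 in both libraries of Can-0 and Zu-0, and lay between 2.00 and 4.57 RPKM in the other 16 accessions (adjusted p = 3.68e-07). RPP1 (AT3G44480), another downy mildew resistance gene, had the code in Ler-0 and 0.163 to 7.0 RPKM elsewhere (adjusted p = 1.45e-09). Of 33 loci listed because presence or structure is known to vary among accessions, these 5 were members, 27 carried no code and 1 was not listed in the files.

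In most other families few or no members reached a mean of 1 RPKM. Of 144 genes for C1 domain proteins 15 were members (10.4%) and none reached a mean of 1 RPKM. Of the 129 C1 genes with no code only 8 did (6.20%). Of 666 F-box genes 26 were members (3.90%), and 22 of these were at 0 throughout. A mean of 1 RPKM was reached by 3.85% of the F-box members, against 21.9% of the F-box genes with no code. Families were listed by the wording of the annotation, so genes not worded as such are missed. ETP1, at a mean of 15.7 RPKM, is annotated as an EIN2 targeting protein and was not counted among the F-box members. Among 609 defensin-like, thionin and other cysteine-rich peptide genes 27 were members and 24 of these were at 0. The thionin gene AT1G66100 was the exception that reached 1 RPKM, against 31.4% of such genes with no code. Transposon-related protein genes gave 38 members of 182 (20.9%), of which 4 passed the filter and 4 were called, against the 55.3% of all genes tested. Receptor-like kinases and proteins gave 8 of 397 (2.02%), cytochrome P450 genes 6 of 259 (2.32%), MADS-box genes 4 of 118 (3.39%) and protease inhibitors 4 of 64 (6.25%). Of the 494 pseudogenes 404 were at 0, and 30 of the 42 that passed the filter were called, also to be read against 55.3% of all genes tested. A mean of 1 RPKM was reached by 3.64% of these 494, near the 4.82% of pseudogenes with no code. Noncoding RNAs gave 28 members of 397 (7.05%), 11 of them at a mean of 1 RPKM or more. That was 39.3%, against 45.6% of the noncoding RNAs with no code and 40.9% of the NLR members.

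The 4 technical libraries of Col-0 listed 593 members (54.3%), against 93.0% of the genes with no code, and none of them held the code. Of these 593 members, 14.2% reached 1 RPKM, against 15.5% of the same members by their mean over the 38 biological libraries. The technical files were made apart from the others, so levels are set side by side only. The technical libraries also shared a lane of another sequencing run than the biological libraries. Kind of file and sequencing run therefore cannot be told apart. LpxC2 (AT1G24880) was at 0 in all 4 technical libraries and at 21.9 and 28.9 RPKM in the biological ones. AT3G18535, AT1G24996 and AT2G15292 were also at 0 in all 4 technical libraries. In the biological Col-0 libraries AT3G18535 had 17.4 and 20.3 RPKM, AT1G24996 had 12.1 and 9.43 RPKM and AT2G15292 had 18.2 and 16.8 RPKM. AT1G35516 reached at most 0.280 RPKM in the technical libraries, against 25.3 and 25.1 RPKM. RPP1 (AT3G44480) was at 18.4 to 20.3 RPKM, against 5.96 and 4.79 RPKM, and RPM1 (AT3G07040) at 3.79 to 4.47 RPKM, against 2.95 and 3.77 RPKM. SNC1 (AT4G16890) was at 49.5 to 56.7 RPKM, against 17.9 and 15.7 RPKM, so its technical Col-0 values also exceeded those of Sf-2. The thionin gene AT1G66100 was lower, at 107 to 123 RPKM in the technical libraries against 427 and 589 RPKM, and so was RLM3 (AT4G16990), at 46.1 to 47.3 RPKM against 97.3 and 119.8 RPKM. For SNC1, AT1G66100 and RLM3 the level in Col-0 thus differed between the kinds of file by more than the libraries of either kind did among themselves. Of the 118 placed members at 1 RPKM in either kind of file, 28 (23.7%) were over 2-fold higher in the technical files and 38 (32.2%) over 2-fold lower, against 7.09% and 10.7% of 17804 genes with no code. Among the 25 members with at least 50% recurring words 14 were higher (56.0%), near the 55 of 107 such genes with no code (51.4%). Among the other 93 members 14 were higher (15.1%), against 6.82% of such genes with no code.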

How the data were processed

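The deposited biological files hold RPKM per gene for 65238 features; the authors' values were used as deposited, and the code -1, whose meaning no header states, was read as no value. The technical files hold RPKM for 28691 features, per the file headers. TAIR9 and TAIR10 are named in the submitters' processing notes; the aligner, counting, strand and treatment of multiple matches are not given in the sources used here. Depth was estimated from the smallest RPKM steps.

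Members and gene lists were chosen with earlier results of these data known; the lists of C1 domain and secretory protein genes were added after values were seen. Loci were matched by name to RefSeq TAIR10.1, whose coordinates are printed. Recurring sequence was counted as exon words of 31 bases.

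Levels were tested with limma 3.58.1 (R 4.3.3) on log2(RPKM + 1), with a filter of 1 RPKM in 2 libraries, over accessions with values; libraries with the code dropped out of that gene's fit. The fit was tested on simulated data.

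Genes named are the 12 highest members, the highest coded in each accession alone, ends of the 5 longest runs, the 10 widest ranges and up to 4 per family; LpxC1, LpxC3 to LpxC5, ASB1, AT1G24807, AT1G24909, AT1G25083, AT1G25155, PIP1;5 and APS1 were added after values were seen. Alternatives changed the pseudocount, filter, reading of the code, scaling, variance trend, replicate block, lane pairs and each library in turn.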

Additional observations from a re-analysis of the deposited data

Results flagged for a closer look

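Among the 30 named members with technical Col-0 values reaching 1 RPKM, 3 had 1 of the 4 technical libraries far from the others, as judged by the gap to the nearest library over the whole range against Dixon's 95% critical value for 4 samples. Chance flags about 1 in 20 such groups. ETP1 (AT3G18980) was at 12 RPKM in technical library 3, against 15.4 to 16.0 RPKM in the others (gap over range 0.858). RLP42 (AT3G25020), a receptor-like protein gene with the code in Kn-0, was at 1.11 RPKM in technical library 1, against 1.97 to 2.12 RPKM (0.851). RPP1 (AT3G44480) was at 18.4 RPKM in technical library 4, against 20.1 to 20.3 RPKM (0.929).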

How the results depend on the processing

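Counting a gene only where both libraries of an accession had the code left 1014 members, and leaving out any 1 library left 1086 to 1092. The number called in the F test was 83 with a filter of 5 RPKM, which tests fewer genes. It was 86, 79, 45, 62 and 38 of 130, 119, 110, 121 and 98 members tested within single lane pairs, which hold fewer accessions. It was 157 to 204 with the other pseudocounts, no filter, the code read as 0, both libraries dropped, quantile normalization and no trend, and 160.0 to 166 without any 1 library. With the replicate block, 163 members were called, and no named gene changed its call under that pairing by number. Same-numbered libraries shared a lane within the groups of accessions sequenced together, apart from Zu-0, and only a number between groups. Their deviations correlated by -0.139 to 0.133 over 171 pairs of accessions, with 2 over 0.1. The share of members at a mean of 1 RPKM was 6.78% from medians and 14.2% in the technical libraries, which list fewer members, and 10.2% to 10.4% without any 1 library. The share in runs was 44.4% with 1 gene allowed between and 31.8% for the same set of libraries. Of 59 named genes tested, AT4G09080 and AT4G29300 lost the call and 6 gained it when some library was left out, none of them a gene the results above give a call for. Low depth limits what a 0 shows, and recurring sequence limits values of single copies.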

Other observations

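AT4G19240 and the pseudogene AT4G19239, neighbours on chromosome 4 with the code in Can-0, were at 0 in all 32 libraries of 16 accessions. AT4G19240 was at 52.9 and 47.2 RPKM in Ler-0 and 8.90 and 10.8 RPKM in Sf-2. AT2G14285, annotated as a small nuclear ribonucleoprotein, had the code in Rsch-4, was at 66.5 and 49.9 RPKM in Kn-0 and at 0 in both libraries of 8 accessions. AT1G51430, of the cTAGE family, had the code in Ler-0 and Ws-0, was at 47.9 and 65.3 RPKM in Wu-0 and at 0 in Hi-0 alone. AT3G22235, a cysteine-rich membrane module gene, had the code in Can-0 and was at 113 and 70.6 RPKM in Bur-0, against 0 in both libraries of Mt-0; 90.3% of its exon words recur elsewhere in the genome. AT2G22820, coded in replicate 2 of Kn-0 only, was at 40.5 and 0 RPKM in Ler-0 and at 35.2 and 0 RPKM in Col-0, so its replicates disagreed in the only accessions where it was above 0.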
